A study of Mus musculus and Homo sapiens with 56 samples.

Results

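Myc, Mycn, Mycl, Max, Mxi1, Mnt and Mga are 7 mouse genes of the MYC network that were taken by name from the gene table of a study of RNA methylation in mouse embryonic stem cells. They were 7 of 52459 genes in that table, and all 7 passed the filter on low counts that left 17778 genes for testing. The study asked how N6-methyladenosine (m6A), a methyl mark on adenosines of RNA, relates to the repressive histone mark H3K9me2. Of its 56 samples, 4 RNA-seq samples and 6 m6A samples of mouse cells are used here. All came from E14TG2a, a mouse embryonic stem cell line, either wild type (WT) or with the label D395A, which names an exchanged residue at the active site of METTL3, the main methyltransferase for m6A on messages. Both genotypes carried no further treatment, and both were grown without feeder cells on gelatin in serum-free medium that held LIF together with a MEK inhibitor and a GSK3β inhibitor. The labels do not say whether the D395A cells are a single clone or how they were made, and no second D395A line was analysed here. RNA-seq was made from whole-cell RNA after removal of ribosomal RNA, with 2 libraries per genotype. The m6A immunoprecipitation was made from chromatin RNA, which holds many unfinished transcripts, broken into short pieces and captured with an antibody.

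MYC, MYCN and MYCL are basic helix-loop-helix leucine zipper proteins that bind E-box DNA (CACGTG) only as heterodimers with MAX and that raise transcription of genes for growth and ribosome production. MXI1, MNT and MGA also pair with MAX and compete for the same sites. MXI1 and MNT recruit the SIN3 corepressor, and MGA is the scaffold of the polycomb complex PRC1.6, which keeps germ cell genes off in embryonic stem cells. MYC messages are short-lived and are known m6A targets, and the mark on a message is read by proteins of the YTH and IGF2BP families.

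Total counts per library were 13953069 and 19246342 for WT and 12743677 and 18151353 for D395A. Differences between the genotypes were widespread: 71.1% of the tested genes were called at an adjusted p below 0.05, 36.8% higher and 34.3% lower in D395A (edgeR quasi-likelihood test, Benjamini-Hochberg adjustment over all tested genes). Where the mean over all libraries reached 10 CPM (counts scaled to library size), 75.5% of genes were called. Mettl3 itself, whose count cannot show a substitution, had 36.2 and 35.5 CPM in WT and 30.6 and 33.9 CPM in D395A (adjusted p = 0.114). Of 6 pluripotency markers, 5 fell in D395A and Sox2 did not pass the test, and their summed level went from 3299 and 3184 CPM to 1817 and 1745 CPM. Of 5 tested fibroblast markers 1 rose and 2 fell, at a summed 7.02 and 6.87 CPM in WT and 5.33 and 4.52 CPM in D395A. Dcn had 0 counts in both WT libraries and 28 and 31 counts in D395A. Of 5 tested primitive endoderm markers 1 rose, 1 fell and 3 did not pass. Their sum was 18.6 and 18.8 CPM in WT and 28.7 and 32.2 CPM in D395A. The only one called higher was Dab2, from 4.41 and 4.94 CPM to 20.5 and 24.9 CPM. Gata4 fell from 8.14 and 7.99 CPM to 1.45 and 1.86 CPM, so the higher sum does not stand for the markers as a set. The part of these marker differences in the results below was not tested, and in bulk RNA fewer cells of a type and less RNA per cell cannot be told apart. The labels do not say that the libraries came from separate cultures, so the p-values measure only the spread between these libraries.

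Mycn rose 2.15-fold and Myc fell to 0.480-fold in D395A cells, while Mycl did not pass the test. Max, Mnt and Mga fell by smaller amounts and Mxi1 rose. Thus 6 of the 7 genes were called, 2 higher and 4 lower, against 71.1% of all tested genes, and at 6 of the 7 genes the libraries of the genotypes did not overlap, against 85.1% of all tested genes. Changes of at least 2-fold were called for Mycn among the higher genes, where 20% of all genes were, and for Myc among the lower genes, where 11.9% were. The share of called genes among the 7 is therefore close to the background of this comparison, and what follows is a description of the single genes.

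**Figure D1:**
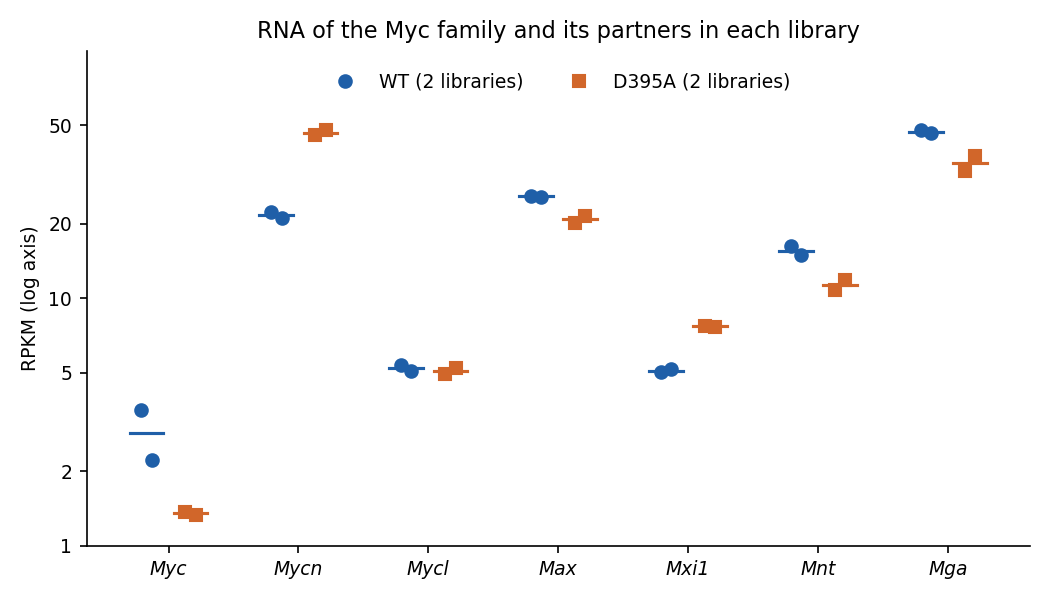
RNA level of each gene in each library, in RPKM (CPM per kilobase of merged exon) on a log axis, with circles for the 2 WT libraries, squares for the 2 D395A libraries and bars at the group means. Mycn moved from between 21.1 and 22.4 RPKM to between 45.6 and 47.7 RPKM, above Mga, and Myc was the lowest of the 7 in every library.

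Mycn, the paralogue known from neural progenitors and neuroblastoma, lies on chromosome 12 (mm10, chr12:12936093-12941914, minus strand) with 3295 exonic bases in 4 merged exons. It had 73.7 and 69.5 CPM in WT and 150.1 and 157 CPM in D395A. Both D395A libraries were above both WT libraries, and within each genotype the libraries differed little. The log2 fold change was 1.10 ± 0.06 (SE), a 2.15-fold rise with a 95% interval of 1.96 to 2.37 (adjusted p = 1.47e-09, edgeR quasi-likelihood test). Of all tested genes, 81.1% had a lower log2 fold change.

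Myc, the founding member of the family and an immediate-early growth gene, lies at chr15:61985391-61990374 on the plus strand with 2717 exonic bases in 4 merged exons. It was counted at 128 and 112 reads in WT and at 49 and 68 reads in D395A, which is 9.56 and 6.01 CPM against 3.73 and 3.62 CPM. Both D395A libraries were below both WT libraries, but the WT libraries themselves differed 1.59-fold, more than those of any other of the 7 genes. The log2 fold change was -1.06 ± 0.23 (SE) with a 95% interval of -1.55 to -0.58 (adjusted p = 0.000724, edgeR quasi-likelihood test). Without the first WT library it was -0.72 and without the second -1.39, so the size of the fall depends on which WT library is used, and the call was kept in both cases (adjusted p = 0.0148 and 5.99e-08).

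Mycl, the paralogue first found in lung tumours, lies at chr4:122995652-123002485 on the plus strand with 4038 exonic bases in 5 merged exons. It had 21.6 and 20.4 CPM in WT and 19.9 and 21.1 CPM in D395A, so the groups overlapped. The log2 fold change was -0.03 ± 0.09 (SE) and did not pass the test (adjusted p = 0.783, edgeR quasi-likelihood test). Its 95% interval ran from -0.23 to 0.17, that is from 0.852-fold to 1.13-fold, so a rise or fall of the size seen for Mycn or Myc lies outside it. The sign of this small value turned with the genes and libraries used, to 0.022 when only genes without an exon on the opposite strand were fitted and to 0.042 without D395A replicate 1.

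Levels of different genes were compared per exonic length, taken as the merged exons of all transcripts. Which transcripts the cells used was not determined, so an order between genes holds for this length only. Among the paralogues Mycn was the most abundant in every library, and its lead grew. It made up 71.6% and 74.4% of the summed RPKM of Myc, Mycn and Mycl in WT and 87.9% in both D395A libraries. The share of Myc went from 11.3% and 7.79% to 2.65% and 2.45%, and that of Mycl from 17.1% and 17.8% to 9.49% and 9.63%. Mycn was 6.35 and 9.54 times the RPKM of Myc in WT and 33.2 and 35.9 times in D395A. The summed level of the paralogues was 31.2 and 28.4 RPKM in WT and 51.8 and 54.3 RPKM in D395A, so the fall of Myc was small beside the rise of Mycn.

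Max, the partner that all the others share, lies at chr12:76937269-76962201 on the minus strand with 3598 exonic bases in 8 merged exons. Its window around the transcript start (250 bases before and 20 bases after it, RefSeq GRCm38.p6, chr12:76962229-76962498, minus strand) is shown because the D395A m6A list holds a peak across 105 of its 270 bases and because it carries the E-box that the MAX dimers bind. It is written 5′ to 3′ with CACGTG and the m6A words GGACA or GGACC or GGACT in capitals.

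Max: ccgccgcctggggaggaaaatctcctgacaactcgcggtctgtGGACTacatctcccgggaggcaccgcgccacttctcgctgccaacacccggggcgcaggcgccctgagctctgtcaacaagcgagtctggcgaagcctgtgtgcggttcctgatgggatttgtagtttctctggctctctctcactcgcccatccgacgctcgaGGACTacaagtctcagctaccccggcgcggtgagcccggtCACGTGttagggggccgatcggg

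The capitals show GGACT starting 207 and 43 bases before the start, and CACGTG starting 3 bases before it and so lying across it. Both GGACT words are therefore outside an RNA that begins at this start, and the one 207 bases before it also lies outside the peak. The RNA that gave the peak was not determined. Max had 93.3 and 92.5 CPM in WT and 72.4 and 77.6 CPM in D395A. Both D395A libraries lay below both WT libraries. The log2 fold change was -0.31 ± 0.07 (SE), to 0.809-fold (adjusted p = 0.000697, edgeR quasi-likelihood test). In WT, Max had 25.9 and 25.7 RPKM and stood above Mycn, which was at 0.862 and 0.821 times its level. In D395A this order was turned, with Mycn at 2.27 and 2.21 times the level of Max. The summed paralogues were 1.20 and 1.10 times Max in WT and 2.58 and 2.52 times in D395A. The length used for Max includes 760 and 766 bases of exons 4 and 5, which are 21.1% and 21.3% of its exonic bases. If its transcripts lacked them, Max would stand higher, so its place beside Mycn and the summed paralogues in WT depends on this length. These are ratios of RNA, and protein was not measured in the files used.

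Mxi1, a MAX partner of the MXD type that recruits SIN3, lies at chr19:53310506-53375810 on the plus strand with 5619 exonic bases in 8 merged exons. It had 28.2 and 29.1 CPM in WT and 43.4 and 43.2 CPM in D395A. The groups were well apart and the libraries within each nearly equal. It rose 1.51-fold, a log2 fold change of 0.59 ± 0.07 (SE) (adjusted p = 5.9e-06, edgeR quasi-likelihood test). Of its exonic bases 194, or 3.45%, lie opposite an exon of Gm10197. How the counting treated strand is unknown, so reads of the opposite gene in this stretch cannot be told apart from those of Mxi1. The median log2 fold change was -0.074 in the 12377 tested genes with no such overlap. It was 0.088 in the 4204 genes with overlap on up to 25% of their exonic bases, as Mxi1 has. In the 487 genes with over 50% it was 3.65. These medians do not give the part of Gm10197 reads in the count of Mxi1, which was not determined.

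Mnt, a large and broadly expressed MAX partner that also recruits SIN3, lies at chr11:74830920-74845725 on the plus strand with 4627 exonic bases in 6 merged exons. Its start window (chr11:74830674-74830943, plus strand) is shown as the other window of the 7 genes with an E-box, which starts 123 bases before the start.

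Mnt: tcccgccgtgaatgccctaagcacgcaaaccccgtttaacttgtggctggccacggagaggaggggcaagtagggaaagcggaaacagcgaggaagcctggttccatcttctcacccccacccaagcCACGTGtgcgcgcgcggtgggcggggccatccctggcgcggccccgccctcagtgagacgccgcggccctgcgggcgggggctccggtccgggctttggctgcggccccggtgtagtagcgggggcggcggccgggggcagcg

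Mnt had 75.1 and 69.0 CPM in WT and 50.1 and 54.6 CPM in D395A. Both D395A libraries were below both WT libraries, although the libraries within each group differed by about 1.09-fold. It fell to 0.730-fold, a log2 fold change of -0.45 ± 0.07 (SE) (adjusted p = 6.92e-05, edgeR quasi-likelihood test). CACGTG, read on either strand since it is its own reverse complement, was present in 2 of the 8 windows of the genes and in 6.57% of 32851 windows of all genes. The words GGACA or GGACC or GGACT, searched on the strand of the gene, were present in 6 of the 8 windows and in 55.7% of all windows. RefSeq windows were matched for 6 of the 7 genes, 3 of them for Mxi1, and Myc had no entry.

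Mga, the largest of the MAX partners, lies at chr2:119897228-119969581 on the plus strand with 15340 exonic bases in 24 merged exons. Its start window (chr2:119896978-119897247, plus strand) is shown because the WT m6A list holds a peak over 164 of its 270 bases. The GGACA in capitals starts 4 bases before the transcript start, so all but its last base is outside an RNA that begins there.

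Mga: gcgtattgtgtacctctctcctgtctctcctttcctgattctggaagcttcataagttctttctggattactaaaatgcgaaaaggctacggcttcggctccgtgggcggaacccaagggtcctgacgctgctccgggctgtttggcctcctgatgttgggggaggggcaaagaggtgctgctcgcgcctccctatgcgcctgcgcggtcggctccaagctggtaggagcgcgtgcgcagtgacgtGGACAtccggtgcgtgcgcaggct

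Mga had 733 and 713 CPM in WT and 499 and 578 CPM in D395A. Both D395A libraries were lower than both WT libraries, and the D395A libraries differed 1.16-fold from each other. The log2 fold change was -0.42 ± 0.08 (SE), to 0.746-fold (adjusted p = 0.000254, edgeR quasi-likelihood test). Without D395A replicate 1 it was -0.29 and without D395A replicate 2 it was -0.53, called in both cases.

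**Figure D2:**
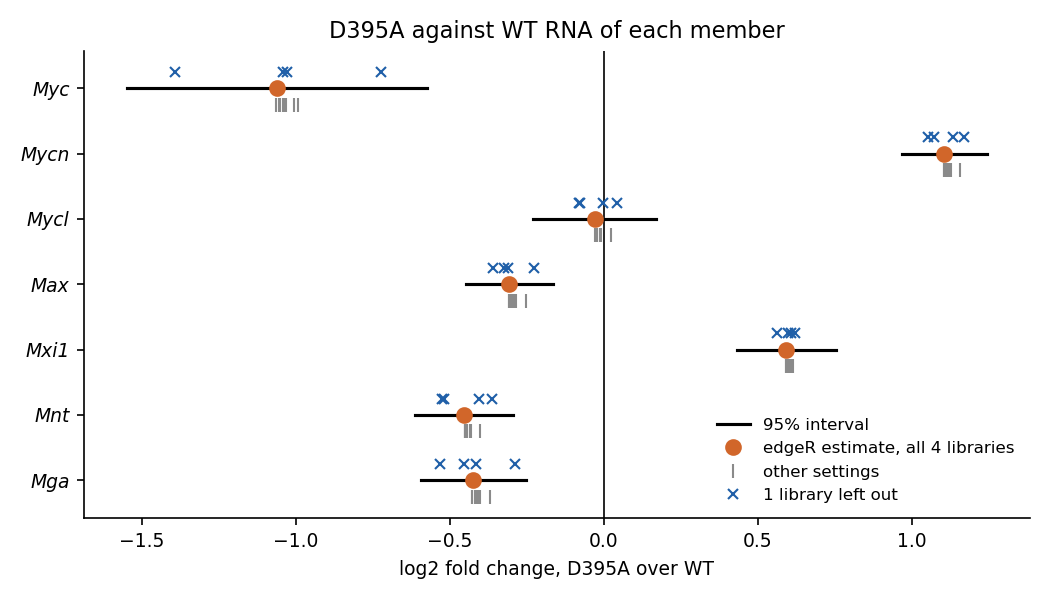
log2 fold change of D395A over WT for each gene, with circles for the edgeR estimate from all 4 libraries, lines for its 95% interval, ticks for the other ways of fitting and crosses for fits with 1 library left out. All values of Mycn and Mxi1 lie above 0, all of Myc, Max, Mnt and Mga below 0, and those of Mycl on both sides of it.

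Ordered by RPKM within a genotype, WT cells had most Mga, with a mean of 47.1, followed by Max at 25.8, Mycn at 21.7, Mnt at 15.6, Mycl at 5.20, Mxi1 at 5.10 and Myc at 2.87. Only the neighbours Mycl and Mxi1 overlapped between libraries. In D395A cells the order was Mycn at 46.6, Mga at 35.1, Max at 20.8, Mnt at 11.3, Mxi1 at 7.70, Mycl at 5.07 and Myc at 1.35, and no neighbours overlapped. Mycn thus moved from the third to the first place and Mxi1 passed Mycl, while Myc stayed last. Among Mxi1, Mnt and Mga together, the share of Mxi1 was 7.28% and 7.78% of the summed RPKM in WT and 15.1% and 13.4% in D395A, and Mga kept the largest share in every library, from 63.7% to 69.8%.

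The genes whose pattern over the 4 libraries was most like that of each paralogue were sought among 7048 other genes (7049 for Myc) with at least 10 CPM and no overlap with an exon on the opposite strand, by the Euclidean distance of centred log2 CPM. For Mycn they were Hpdl (distance 0.00945), Mrpl16 (0.0358) and Adck2 (0.0443), which rose by 1.11, 1.14 and 1.08 on the log2 scale. For Mycl they included Ptdss2 (0.00816) and Eif4g1 (0.0126), neither of which passed the test. For Myc the nearest were farther off, at 0.177, 0.189 and 0.209, and all were small RNAs, Gm22513, Scarna6 and Snora23, each of which fell and had a higher level in the first WT library than in the second, as Myc did. All these genes were chosen for their likeness over the same 4 libraries, so their directions follow from the choice. Myc itself, at a mean of 5.73 CPM, lies below the 10 CPM asked of the other genes, so genes at its level were not searched. With 4 libraries this likeness is a description only.

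The m6A lists hold 48445 peaks for WT and 38823 for D395A, each with the authors' fold enrichment of precipitated RNA over input at its highest point. Behind the WT list are 2 precipitates and 2 inputs, and every peak in it has q below 0.05. The D395A list rests on 1 of each, has p below 0.05 throughout and q below 0.05 for 13.6% of its peaks. The median fold was 6.31 in the WT list and 2.66 in the D395A list, and the median width 595 and 309 bases. There is 1 list per genotype, the reads behind a peak are unknown and the lists differ in how far their q values reach, so the lists are set side by side without a test, and a gene without a D395A peak is one that is not in that list and not one shown to lack m6A.

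All 7 genes held at least 1 WT peak, which 66.5% of tested genes and 77.1% of those with at least 10 CPM did. All 7 held one on an exon, against 61% of tested genes, and all 7 held one on the last exon, against 47.8% of tested genes and 58.4% of those with at least 10 CPM. The last exon of a messenger RNA usually carries the stop codon, near which m6A is known to gather. The 7 genes held 30 WT peaks, 29 of them exonic by touching an exon and 1 intronic, with folds from 1.95 to 32.2 and a median of 5.17. When at least 50% of a peak had to lie within exons, 19 of the WT peaks were exonic, and 7 instead of 17 on Mga. In the D395A list they held 15 peaks, 11 exonic and 4 intronic, with folds from 2.11 to 4.50 and a median of 2.82. By the same 50% rule 9 of the D395A peaks were exonic, and 1 instead of 2 on Mycn. The order of these totals turned with the threshold: with q below 0.05 in both lists the genes held 30 WT and 8 D395A peaks, and with the 5275 best peaks of each list 6 WT peaks, on Mga and Mycl, and 8 D395A peaks. A D395A peak was on 4 of the 7 genes, against 52.6% of tested genes and 71.7% of those with at least 10 CPM, and one with q below 0.05 on 3 of them, against 17.3% and 26.5%. Of the 30 WT peaks 7 were overlapped by a D395A peak, on Mycn and Mga, against 11.9% of WT peaks on all tested genes. Of the 15 D395A peaks 8 were overlapped by a WT peak, against 11.1%. Mga alone held 5 of these 7 WT peaks and 6 of these 8 D395A peaks. The 11.9% and 11.1% are not matched for RNA level or number of peaks per gene. Such an overlap was found on 2 of the 7 genes, against 16.3% of tested genes and 22.6% of those with at least 10 CPM.

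**Figure D3:**
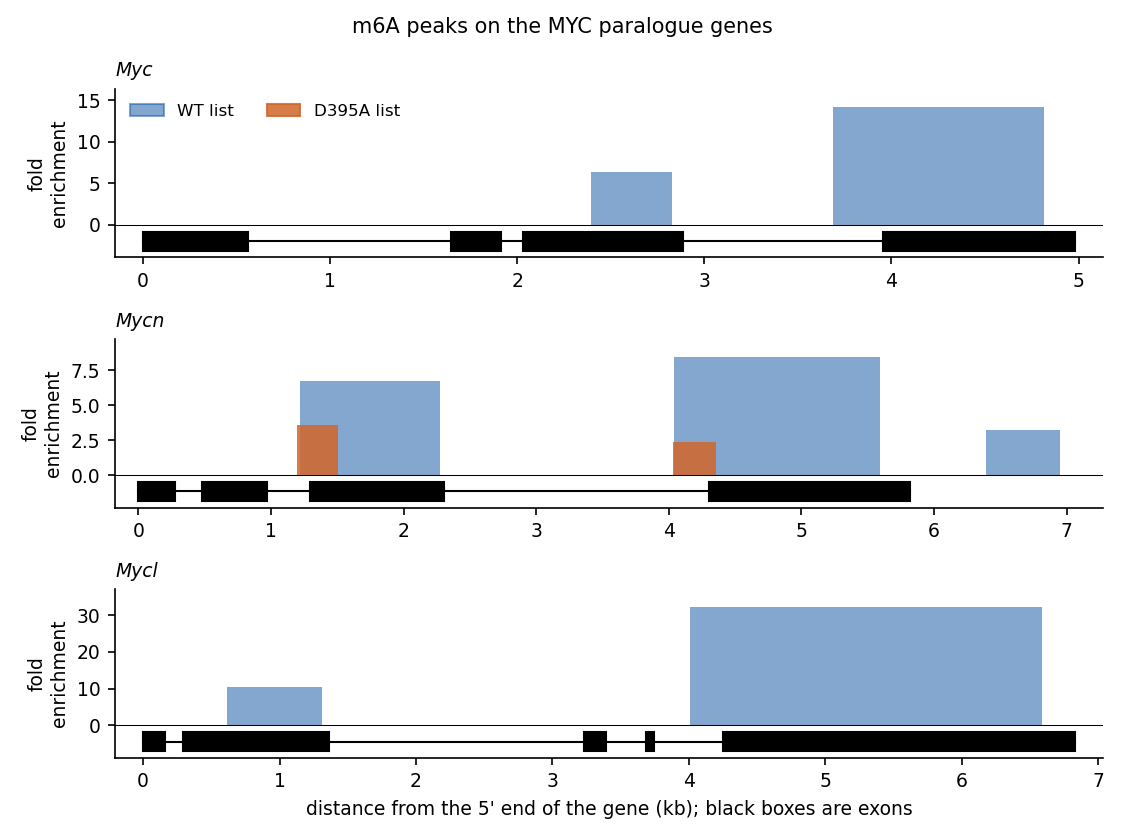
m6A peaks on Myc, Mycn and Mycl, drawn as bars over the gene model (black boxes are merged exons) at their distance from the 5′ end of the gene in kb, with the bar's height giving the authors' fold enrichment in the WT list (blue) or the D395A list (orange). Each paralogue has a tall WT bar over its last exon and a lower one over an inner exon, and only Mycn has D395A bars, with folds of 3.59 and 2.36.

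The paralogues shared a layout of 2 WT peaks, 1 on an inner exon and 1 over most of the last exon. At least 2 WT peaks, wherever they lay, were found on 38.6% of tested genes, and genes with this layout were not counted. Mnt and Mga also held WT peaks on inner exons and on the last exon. On Myc the inner peak covered chr15:61987784-61988217 on exon 3 with a fold of 6.43, and the last-exon peak covered chr15:61989080-61990205 with a fold of 14.2, higher than 89.4% of WT peaks. It lay over 83.6% of that exon. On Mycl the peak on exon 2 (chr4:122996267-122996961) had a fold of 10.4, and that on exon 5, the last (chr4:122999658-123002239), had a fold of 32.2 over 90.5% of the exon. This was the strongest peak of the 7 genes and stood above 99.7% of the WT list. Most peaks of the 7 genes stood lower, with a median place above 34.5% of the WT list. Those of Mnt stood above 0.32% to 34.7% of it and those of Mga above 2.03% to 54.9%. Neither Myc nor Mycl had a D395A peak, at an RNA level of 3.73 and 3.62 CPM for Myc and 19.9 and 21.1 CPM for Mycl in D395A.

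Mycn held WT peaks on exon 3 (chr12:12939638-12940697, fold 6.71) and on exon 4, its last (chr12:12936320-12937878, fold 8.44), which lay over 97.2% and 85.1% of those exons. A further WT peak, with a fold of 3.22, began beyond the 3′ end of the gene at chr12:12934968-12935519. In the D395A list both exons were again touched by a peak, with folds of 3.59 and 2.36, and the former had q below 0.05. The latter had q above 0.05 and lay mostly in the intron, with 15.7% of its bases on exon 4. These D395A peaks were short, 313 and 319 bases against 1060 and 1559 bases in WT, and their summits lay 503 and 490 bases from the WT summits, toward the 5′ side. They covered 20.9% of exon 3 and 3.29% of exon 4. Mycn was thus the paralogue with the higher RNA level in D395A and the only one of the 3 with D395A peaks. The RNA levels are those of whole-cell RNA, and the peaks are of chromatin RNA. The part of the RNA level in this difference between the lists was not tested.

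**Figure D4:**
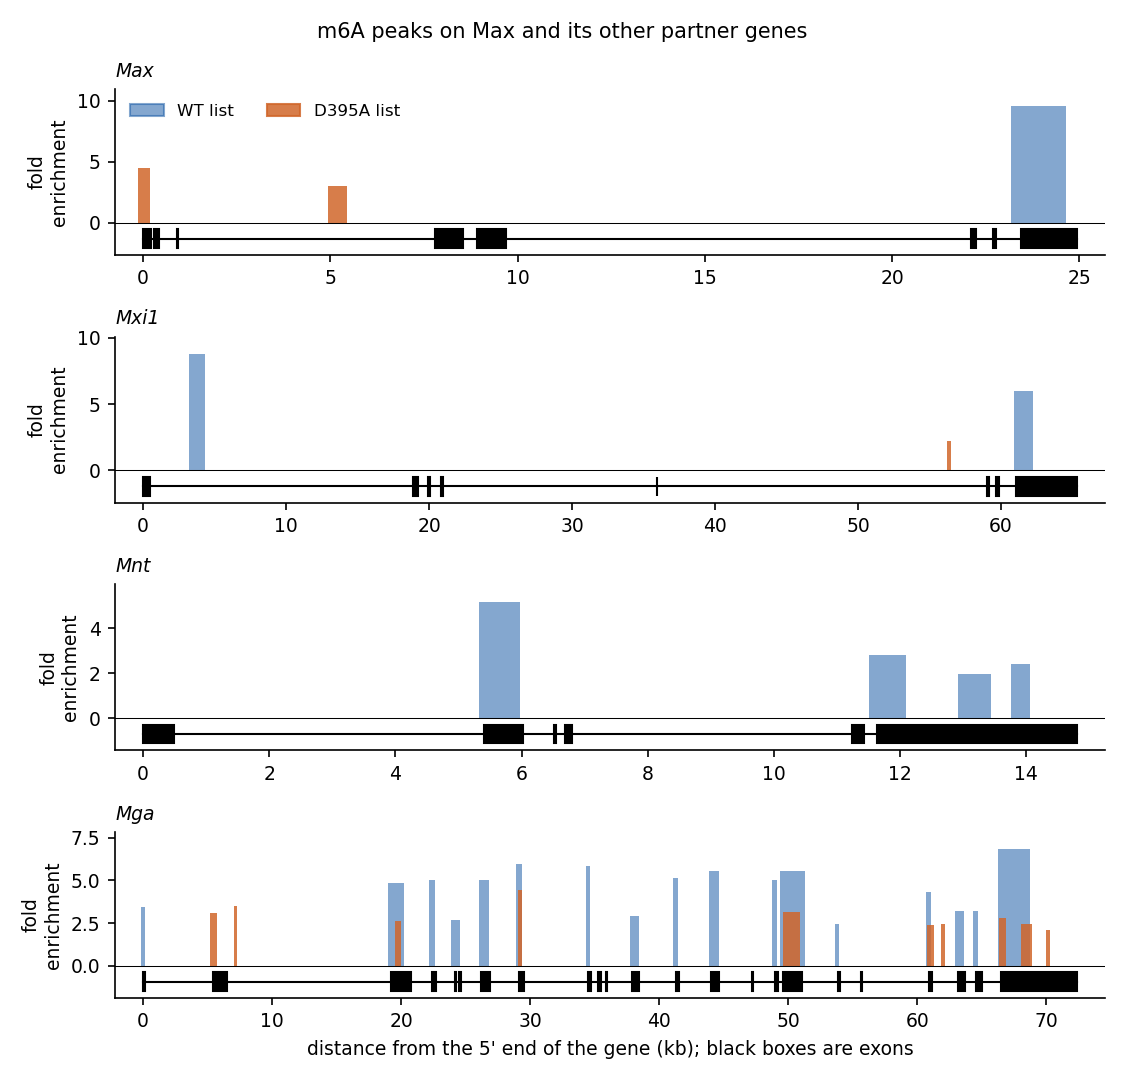
m6A peaks on Max, Mxi1, Mnt and Mga, drawn as for the paralogues, with distance from the 5′ end of the gene in kb and the authors' fold enrichment in the WT list (blue) and the D395A list (orange). Max has 1 WT bar on its last exon and D395A bars only near its 5′ end, and Mga has bars of the WT list along most of its length, 5 of them overlapped by the D395A list.

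Max had 1 WT peak, over 79.9% of its last exon (chr12:76937568-76939026, fold 9.54), and none at its 5′ end. Its D395A peaks lay elsewhere: one on the first exon and across the start (chr12:76962014-76962333) had a fold of 4.50, higher than 96.9% of the D395A list, and q below 0.05, and one in an intron (chr12:76956767-76957259) had a fold of 3.04 with q above 0.05. The first-exon peak is the one that reaches into the start window printed above. Windows around a start were touched by a WT peak in 6.56% and by a D395A peak in 3.52% of 32851 windows.

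Mxi1 was the only one of the 7 genes with a WT peak in an intron (chr19:53313692-53314855, fold 8.76), which lay 3.42 kb from the 5′ end. Its last-exon peak (chr19:53371395-53372733, fold 5.98) covered 27.4% of a long exon and the whole of Gm10197, and the lists carry no strand. The D395A list had 1 peak, in another intron, with a fold of 2.25. Mnt had 4 WT peaks, with a fold of 5.18 on exon 2 and of 2.79, 1.95 and 2.39 on the last exon, the lowest median of the 7 genes at 2.59, and no D395A peak.

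Mga held 17 WT peaks, a number reached on 0.371% of tested genes, with folds from 2.46 to 6.82. Per kb of exon this was 1.11 peaks, against 0.278 for Max and 0.865 for Mnt. The RNA level of Mga in WT was higher in CPM than that of 99.5% of tested genes, and the gene spans 72.4 kb. The part of RNA level and gene length in the number of peaks on Mga was not tested. The peaks touched 19 of its 24 exons, the exceptions being exons 2, 11, 12, 16 and 20, and the strongest lay on the last exon (chr2:119963481-119965924, fold 6.82). One lay on the first exon (chr2:119897084-119897366, fold 3.44), as did a WT peak of 15.6% of tested genes, and is the one that reaches into the start window printed above. The summit lay within an exon in 11 of the 17 peaks.

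In the D395A list Mga held 10 peaks, 8 exonic and 2 intronic, 6 of them with q below 0.05. On exons 3, 9, 18, 21 and 24 they overlapped a WT peak, and on exon 2, where the WT list has none, a D395A peak had a fold of 3.07. The summits of both lists were 1 base apart on exon 3, 6 on exon 9, 369 on exon 18, 306 on exon 21 and 577 and 1387 on exon 24. On exons 3 and 9 the folds were 4.86 and 5.99 in WT and 2.61 and 4.45 in D395A. Per exonic length, Mycn at 45.6 and 47.7 RPKM and Mga at 32.6 and 37.7 RPKM had the highest RNA levels of the 7 genes in D395A, and they were also the genes on which both lists overlapped. Max at 20.1 and 21.6 RPKM and Mxi1 at 7.72 and 7.68 RPKM held D395A peaks that did not overlap a WT peak. Mnt, at 10.8 and 11.8 RPKM, held no D395A peak. The part of the whole-cell RNA level in these peaks of chromatin RNA was not tested.

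Exonic peaks of these genes often reached past the exon on one side. Peaks on a first or last exon have an intron on 1 side only, so the sides were compared for peaks that touch inner exons alone. The 7 genes held 19 such WT peaks, 15 of them on Mga. Of these 19, 16 (84.2%) ran into the intron on the 5′ side and not into that on the 3′ side, by 81 to 250 bases, none ran only to the 3′ side, 1 ran to both and 2 to neither. Among 9564 such WT peaks of all tested genes the 5′ side alone was reached by 52.5%, the 3′ side alone by 7.18% and both by 25.9%. In the D395A list the 5′ side alone was reached by 3 of 6 such peaks of the 7 genes and by 57.4% of 7071 for all.

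The genes around the MYC network were described by lists, each set beside the 36.8% of all tested genes that were higher and the 34.3% that were lower and their median log2 fold change of 0.0029. For the 12377 genes without an exon on the opposite strand these shares were 32.3% and 37.1% and the median was -0.074. The list counts are descriptions, and no list was tested as a whole. In the other MAX and MLX network factors, 4 of 6 rose and 2 fell, with a median of 0.76. Mxd4, an antagonist linked to exit from the cell cycle, went from 3.81 and 4.02 CPM to 26.3 and 23.9 CPM (log2 fold change 2.67 ± 0.13, adjusted p = 2.22e-10, edgeR quasi-likelihood test), with 6.06% of its exonic bases opposite another exon. Mxd1, an antagonist of the same kind, fell from a mean of 17.6 CPM to one of 7.81 CPM. Mlxipl, the carbohydrate response factor, and Mlxip rose from means of 11.3 and 46.4 CPM to 21.9 and 67.5 CPM. Of these 6 genes only Mxd1 was free of overlap with an exon on the opposite strand.

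**Figure D5:**
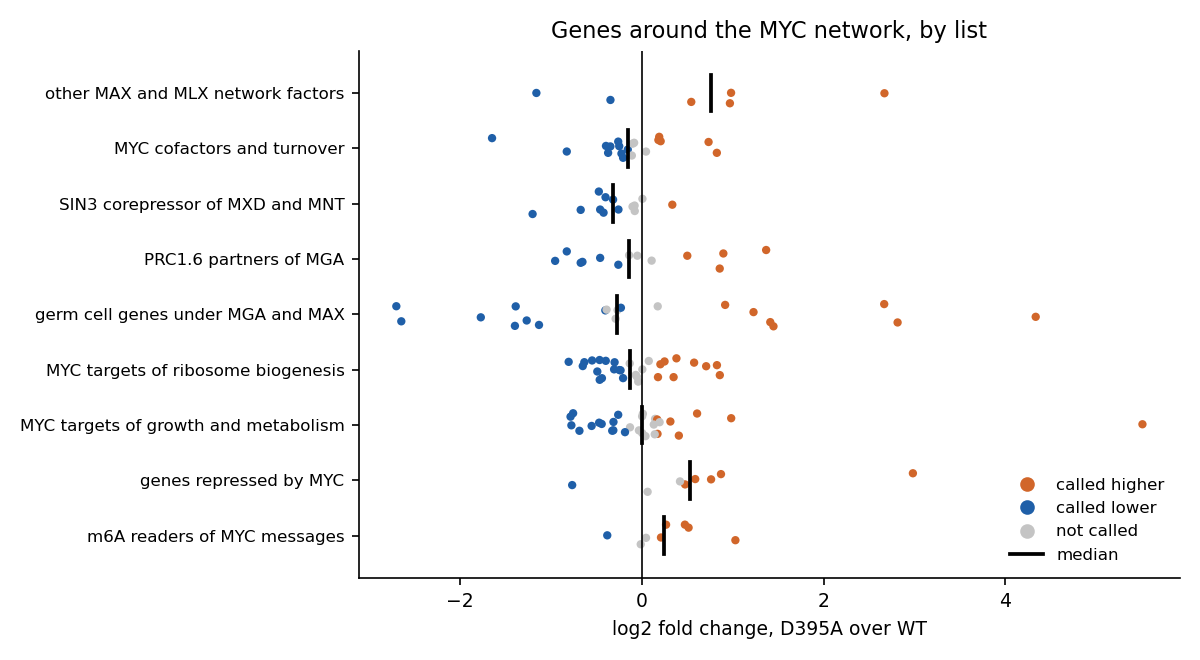
log2 fold change of D395A over WT for each tested gene of the 9 lists, with orange for genes called higher, blue for genes called lower, grey for genes not called and a bar at the list's median. Called genes lie on both sides of 0 in every list, and the medians run from -0.32 for the SIN3 list to 0.76 for the other network factors.

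Of 19 cofactors and turnover factors of MYC, 5 rose, 10 fell and 4 did not pass, with a median of -0.15. Pim1, a kinase that acts on MYC, fell from 244 and 223 CPM to 72.4 and 76.5 CPM, with 17.7% of its exonic bases opposite another exon. Wdr5, a chromatin adaptor that MYC binds, fell from 322 and 316 CPM to 179 and 181 CPM, and Cdk9, the kinase of pause release, rose from 66.7 and 69.2 CPM to 121 and 120.1 CPM. Skp2, a ubiquitin ligase subunit that turns MYC over, rose from a mean of 51.7 to 86.0 CPM. Of the 13 SIN3 complex genes, 8 fell, 1 rose and 4 did not pass, with a median of -0.32. Sap30 fell most, from 54.8 and 54.6 CPM to 24.5 and 23.2 CPM, and the deacetylases Hdac1 and Hdac2 fell from means of 172 and 156 CPM to 108 and 114 CPM.

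Of 13 PRC1.6 partners of MGA, which share Wdr5, Hdac1 and Hdac2 with those lists, 4 rose, 6 fell and 3 did not pass, with a median of -0.14. L3mbtl2 fell from 142 and 139 CPM to 71.6 and 73.2 CPM, with 17.2% of its exonic bases opposite another exon. E2f6, a repressor of the complex, rose from a mean of 28.1 to 50.9 CPM, and Yaf2 rose from 8.37 and 8.64 CPM to 22.6 and 21.5 CPM. Of 20 tested germ cell genes known as targets of MGA and MAX, 7 rose, 9 fell and 4 did not pass, with a median of -0.28. Stra8, the inducer of meiosis, rose from 9.56 and 9.28 CPM to 211 and 169 CPM (log2 fold change 4.33 ± 0.11, adjusted p = 5.05e-13, edgeR quasi-likelihood test). Hormad1, a protein of the meiotic chromosome axis, fell from 14.0 and 17.1 CPM to 2.43 and 2.55 CPM, and Dazl, a germ cell RNA-binding protein, from 36.4 and 37.4 CPM to 15.3 and 13.0 CPM. Tdrkh rose from 0.897 and 1.40 CPM to 8.06 and 7.07 CPM, with 36.7% of its exonic bases opposite another exon. The germ cell genes therefore lay on both sides.

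Of 29 tested MYC targets in ribosome production, 9 rose, 14 fell and 6 did not pass, with a median of -0.13, and none was called at 2-fold or more. The nucleolar methyltransferase Nop2 rose from 193 and 189 CPM to 335 and 342 CPM, Polr1b, a subunit of RNA polymerase I, from a mean of 135 to 244 CPM, and Bysl from a mean of 73.1 to 119 CPM. Nop58, a core protein of box C/D small nucleolar RNPs, fell from 249 and 242 CPM to 148 and 134 CPM. Of 29 targets in growth and metabolism, 7 rose, 12 fell and 10 did not pass, with a median of 0.0040. Ccnd2, a D-type cyclin, rose from 1.94 and 2.58 CPM to 95.3 and 114 CPM (log2 fold change 5.51 ± 0.14, adjusted p = 3.21e-13, edgeR quasi-likelihood test), and Gart, an enzyme of purine synthesis, fell from 407 and 386 CPM to 224 and 237 CPM. Shmt1, an enzyme of folate metabolism, fell from 208 and 202 CPM to 115 and 124 CPM. Of the exonic bases of Ccnd2 and Gart, 7.86% and 16.9% lie opposite another exon. Apex1 rose from a mean of 132 to 262 CPM, but 61.7% of its exonic bases lie opposite another exon.

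Of 8 genes known to be repressed by MYC, 5 rose, 1 fell and 2 did not pass, with a median of 0.53. The cell cycle inhibitor Cdkn1a rose from 251 and 249 CPM to 387 and 364 CPM, and Gadd45g from 0.149 and 0.322 CPM to 2.21 and 1.86 CPM. Cdkn1c, at a mean of 2.72 CPM in WT and 4.92 CPM in D395A, was called with edgeR and not with DESeq2 (adjusted p = 0.0774), with 30.7% of its exonic bases opposite another exon, and Ndrg1 fell from 18.4 and 15.3 CPM to 8.52 and 10.9 CPM. Of 8 m6A readers, 5 rose, 1 fell and 2 did not pass, with a median of 0.24. Ythdf2, which speeds the decay of m6A messages, rose from 164 and 169 CPM to 331 and 347 CPM, and Ythdc1, the nuclear reader, from a mean of 139 to 198 CPM. Igf2bp1, which is known to steady MYC messages, fell from 1049.8 and 1016 CPM to 761 and 827 CPM, and Igf2bp2 rose from a mean of 131 to 182 CPM.

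Some of these counts depended on 1 library or on the fit. Without WT replicate 1, 5 instead of 10 cofactors of MYC were lower and 2 instead of 5 higher, 4 instead of 7 growth and metabolism genes were higher, and 3 instead of 5 readers were higher. Without WT replicate 2, 3 cofactors and 4 growth and metabolism genes were higher. With DESeq2, 2 of the 8 genes repressed by MYC and 2 cofactors were higher. When only genes without opposite-strand overlap were fitted, 7 of 21 ribosome production genes, 4 of 18 growth and metabolism genes and 5 of 14 cofactors were lower.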

How the data were processed

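RNA-seq compared 2 WT with 2 D395A libraries, and m6A immunoprecipitation gave 1 peak list per genotype. The members and gene lists were chosen with earlier results of these data known. The authors deposited raw read counts per gene, with exon coordinates and exonic length per the file headers. Per the submitters' processing notes, the tools included Trimmomatic 0.33.0, HISAT2 2.1.0, featureCounts 1.6.3, edgeR 3.22.5 and MACS2 2.1.1 with mm10. The sources used here give neither the step of each tool nor how counting treated strand. RNA-seq libraries were made with a directional kit, per the labels' protocols. The column of D395A replicate 1 differs from its label by 1 character. Peak lists were deposited in the narrowPeak layout, with the fold enrichment, the -log10 p and -log10 q and an integer score. As deposited, the score is 10 times the -log10 q in the WT list, in 48443 of its 48445 peaks, and 10 times the -log10 p in the D395A list. Another 2 unnamed columns of the WT list were not used.

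Counts were filtered with filterByExpr, scaled by TMM and tested with edgeR 4.0.16 (quasi-likelihood, all 4 libraries, Benjamini-Hochberg over 17778 genes, 0.05) in R 4.3.3. CPM and RPKM use the TMM-scaled libraries, and SE and 95% intervals come from the same fit. Exons of all transcripts of a gene were merged, and a peak sharing 1 base with an exon was exonic. Start windows came from the RefSeq table (GRCm38.p6, the assembly that mm10 names). Named genes are the 7 members, up to 4 called genes of smallest adjusted p per list, and 3 nearest genes per paralogue, of which 1 is not reported here. Mettl3, Sox2 and Gm10197, which overlaps Mxi1, were named beyond that rule, after their values were seen. Alternatives were RLE and upper quartile scaling, other filters, a replicate block, genes without opposite-strand overlap, each library left out, DESeq2 1.42.0 and limma-voom (limma 3.58.1). For peaks they were q below 0.05, equal list sizes, 50% overlap, the summit and 1000 flanking bases. The code was tested on simulated data with known changes. Figures were made with matplotlib 3.10.9. Chromatin immunoprecipitation and HEK293T samples were not analysed here.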

Additional observations from a re-analysis of the deposited data

How the results depend on the processing

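Of 83 values of the 7 genes under the alternatives, 81 kept their direction and their side of the threshold, and the other 2 were the sign changes of Mycl, to 0.022 with genes lacking opposite-strand overlap and to 0.042 without D395A replicate 1, neither called. Ranges were -1.39 to -0.72 for Myc (largest adjusted p 0.0148), 1.05 to 1.17 for Mycn, -0.082 to 0.042 for Mycl, -0.36 to -0.23 for Max (0.0153), 0.56 to 0.62 for Mxi1, -0.53 to -0.36 for Mnt and -0.53 to -0.29 for Mga (0.00956). Mxi1 was not tested among genes without overlap. The genes named as nearest to Mycl, never called, changed sign likewise: without overlap Eif4g1 was at 0.021 and Ptdss2 at 0.020, and with 1 library left out they ran from -0.087 to 0.041 and from -0.078 to 0.039. Of 608 values of the other named genes, all kept both but 5 sign changes of Eif4g1 and Ptdss2 and 2 more: Cdkn1c and Col1a2 lost their call with DESeq2 (adjusted p 0.0774 and 0.0568). Genes called higher numbered 4277 when only the 12341 genes without overlap were fitted, and 6032 to 6688 with 1 library left out, where the spread of the lone library is taken from the other group. Genes called lower then numbered 5125 to 6009.

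With the replicate number as a block, 6656 genes were higher and 6239 lower, Myc was at -1.03 and Mycn at 1.10, and no call of the 7 genes changed. The labels do not say that numbers pair the libraries, and the deviations of same-numbered libraries correlated at 0.149 across 10120 genes.

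With q below 0.05 in both lists the 7 genes held 8 D395A peaks, 7 of them exonic. With the 5275 best peaks of each list they held 6 WT peaks, all exonic, 5 on Mga and 1 on Mycl, and 8 D395A peaks, 7 exonic, with 3 WT peaks overlapped. With at least 50% of a peak within exons, 19 WT peaks and 9 D395A peaks were exonic. The counts of peaks in the 2 lists therefore turn with the threshold. Depth limits Myc most among the 7 genes, at 49 to 128 counts per library, and the depth behind the peaks is unknown.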
